A study of Mus musculus with 12 samples.

Results

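The Igf2bp, Lin28 and Hmga genes encode fetal RNA-binding and chromatin proteins. The 7 genes described here, Igf2bp1, Igf2bp2, Igf2bp3, Lin28a, Lin28b, Hmga1 and Hmga2, were followed through 6 peak lists of H4K8ac, acetylation of lysine 8 on histone H4, in mouse oligodendrocyte progenitor cells (OPCs). A peak belongs to a gene where the deposited lists give that gene's name to the peak. By this rule 34 of 269580 peaks were assigned to the 7 genes, of 23433 genes with a peak in any library. The set was chosen by measured values, the peaks of these same lists, because Igf2bp1 and Igf2bp3 lacked peaks in adult libraries where neonatal libraries had them. Every difference between the ages at these genes is therefore given as a description, with no test.

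Forebrain cells were sorted from mice of the genotype PdgfrαH2BEGFP, in which nuclear green fluorescence marks cells that express Pdgfra, a receptor of OPCs that some other cells of the brain also carry. The neonatal group was taken at postnatal day 5 and the adult group at postnatal day 60. Each has 3 H4K8ac libraries, labelled as biological replicates 1 to 3, and no treatment or second allele separates the groups. Strain, sex and the number of mice behind a library are not given in the sources used here, and the 6 input libraries of the series were not analysed here. In sorted bulk cells, a mark carried by fewer cells and a mark that is weaker in each cell cannot be told apart.

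Insulin-like growth factor 2 mRNA-binding proteins (IGF2BP1 to IGF2BP3) bind transcripts through KH domains and keep them stable, localised or untranslated, and they also read m6A, a methyl mark on RNA. LIN28A and LIN28B block the maturation of the let-7 microRNAs, and let-7 in turn represses Lin28, Igf2bp and Hmga2 messages. HMGA1 and HMGA2 are AT-hook proteins that bind the minor groove of DNA and are abundant in dividing fetal cells, neural stem cells among them. Most of these genes are termed oncofetal because they are high in the embryo, low in most adult tissues and high again in many tumours. Acetylated H4K8 is found at active promoters and enhancers.

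Sequences of the starts of 4 of these genes are shown because they differ in whether H4K8ac peaks reached them. Each is the 250 bases just upstream of the RefSeq transcription start on GRCm38.p6, written 5′ to 3′ on the gene's strand, with every CpG in capitals. Of these windows, peaks covered 250 bases at Hmga1 in 3 libraries (neonatal replicate 2, adult replicates 1 and 3) and 101 bases in adult replicate 2. They covered 151 bases at Igf2bp2 in neonatal replicate 2 and 25 bases in adult replicate 1. At Igf2bp3 they covered 140 bases in neonatal replicate 2 and 0 in the other libraries, and at Lin28a they covered 0 bases in each of the 6 libraries.
Igf2bp2, chr16:22163300-22163549, minus strand: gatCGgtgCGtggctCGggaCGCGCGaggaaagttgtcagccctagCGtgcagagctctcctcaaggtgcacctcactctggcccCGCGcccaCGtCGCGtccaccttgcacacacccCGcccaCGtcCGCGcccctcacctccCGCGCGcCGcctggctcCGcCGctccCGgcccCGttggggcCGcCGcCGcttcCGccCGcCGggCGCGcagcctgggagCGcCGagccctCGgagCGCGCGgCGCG
Igf2bp3, chr6:49214955-49215204, minus strand: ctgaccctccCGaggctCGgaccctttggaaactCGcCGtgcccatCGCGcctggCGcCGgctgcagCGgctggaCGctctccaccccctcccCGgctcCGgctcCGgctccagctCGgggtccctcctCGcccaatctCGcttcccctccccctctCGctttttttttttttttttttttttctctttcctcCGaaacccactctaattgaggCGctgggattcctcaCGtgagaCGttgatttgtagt
Hmga1, chr17:27556324-27556573, plus strand: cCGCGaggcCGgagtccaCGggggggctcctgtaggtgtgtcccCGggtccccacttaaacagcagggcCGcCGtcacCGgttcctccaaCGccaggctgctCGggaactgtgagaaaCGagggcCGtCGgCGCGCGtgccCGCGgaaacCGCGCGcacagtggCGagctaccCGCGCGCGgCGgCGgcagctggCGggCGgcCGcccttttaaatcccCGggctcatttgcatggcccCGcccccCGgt
Lin28a, chr4:134018817-134019066, minus strand: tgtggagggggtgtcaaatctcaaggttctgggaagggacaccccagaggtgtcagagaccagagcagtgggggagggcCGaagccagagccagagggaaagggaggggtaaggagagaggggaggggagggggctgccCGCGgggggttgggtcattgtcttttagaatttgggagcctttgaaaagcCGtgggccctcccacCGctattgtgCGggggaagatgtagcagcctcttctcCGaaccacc

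The Igf2bp2 window holds 40 CpG and is 77.2% G or C, the Hmga1 window 34 CpG and 72.8%, the Igf2bp3 window 21 CpG and 60.4%, and the Lin28a window 7 CpG and 61.2%. Over 32851 RefSeq promoter windows of the same length the medians were 6 CpG and 52.4%. By number of CpG the Igf2bp2 window stood at the 98.7 percentile, Hmga1 at the 96.5, Igf2bp3 at the 83.7 and Lin28a at the 53.7 percentile. The windows of Hmga2 (8 CpG) and Lin28b (6 CpG) had no base under a peak in any library, although neonatal replicate 2 had peaks on either side of the Hmga2 start. Both strands were searched for the E-boxes CAGCTG and CAGATG, the SOX motif ACAATG and the NFI motif TTGGCA, of which the E-boxes are both forms of CANNTG. No window held more than 1 of these motifs, so no matches overlapped. CAGCTG was found in the Hmga1 window (13.0% of all windows hold it), ACAATG in the Lin28a window (10.7%) and CAGATG in the Lin28b window (14.4%). TTGGCA, held by 12.3% of all windows, was in none of these windows. A match is a string of letters and not evidence of binding.

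The lists differ in length, which bears on every count below. The neonatal lists of replicates 1, 2 and 3 held 9097, 31189 and 7353 peaks and the adult lists 72278, 72661 and 77002, so neonatal replicate 2 stood apart from the other neonatal libraries. Read numbers are not part of the lists, and the part of depth in these lengths was not tested. The OPC label was checked with 10 marker genes: 10, 10 and 7 had a promoter peak in the neonatal libraries and 9, 8 and 8 in the adult libraries, with Pdgfra, Olig1, Olig2, Sox10 and Cspg4 marked in all 6. The promoter site of Pdgfra, the gene of the sorting reporter, was the only one of this list below 0 in the authors' deposited table of differential sites, with a log2 fold change (adult over neonatal) of −1.23 and an adjusted p of 0.027. Of 8 markers of mature oligodendrocytes, 1, 2 and 1 had a promoter peak in the neonatal libraries and 8 in each adult library. Their summed promoter peaks numbered 1 to 5 in neonatal and 42 to 58 in adult libraries. In the neonatal libraries Mog, Mag, Mobp, Opalin and Aspa had 0 promoter peaks. Of 10 markers of radial glia and neural stem cells, 7, 10 and 2 had a promoter peak in neonatal and 10, 9 and 9 in adult libraries. Of 6 microglial markers, 0 had a promoter peak in any neonatal library and 1 in each adult library. Of 6 astrocyte markers, 1, 4 and 1 had a promoter peak in neonatal and 3, 1 and 4 in adult libraries. For 7 neuronal markers the counts were 0, 4 and 1 against 5, 3 and 3. For 7 endothelial and fibroblast markers they were 0, 2 and 0 against 2, 3 and 2. The part of these other cell types in the values below was not tested.

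In the neonatal libraries 3, 11 and 4 peaks were assigned to the 7 genes, and in the adult libraries 5, 8 and 3. The neonatal mean was 6.0 ± 4.36 (SD, n = 3) and the adult mean 5.33 ± 2.52 (SD, n = 3), so the counts overlapped. Per 10000 peaks of the list, the genes held 3.3, 3.53 and 5.44 in the neonatal and 0.692, 1.1 and 0.39 in the adult libraries, and relative to list length the ages no longer overlapped. Nothing is read from this, since the adult lists are longer and the set was chosen by missing adult peaks. The same scaling was not run for other genes. Promoter peaks, which the authors annotated within 3000 bp of a transcription start site (TSS), made up 2, 10 and 3 of the neonatal and 3, 5 and 2 of the adult peaks. The other 1, 1 and 1 neonatal and 2, 3 and 1 adult peaks lay in introns or between genes. Over each whole list, promoter peaks made up 85.2%, 67.5% and 88.8% in neonatal and 43.9%, 43.1% and 40.4% in adult libraries. At least 1 promoter peak was found at 2, 5 and 3 of the 7 genes in neonatal and at 3, 2 and 2 in adult libraries. Of all 21896 RefSeq protein-coding genes, 26.0%, 52.6% and 23.2% had one in neonatal and 55.6%, 53.8% and 54.5% in adult libraries. With the limit at 1000 bp from a TSS these numbers were 2, 5 and 3 against 2, 1 and 1. When each list was shortened to its 7353 strongest peaks by p, the length of the shortest list, 3, 3 and 4 genes kept a peak in neonatal and 1, 0 and 2 in adult libraries. Neonatal replicate 3 is the shortest list and lost no peak by this cut. The share of all genes that kept a peak was not computed, so nothing is read from these counts.

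**Figure D1:**
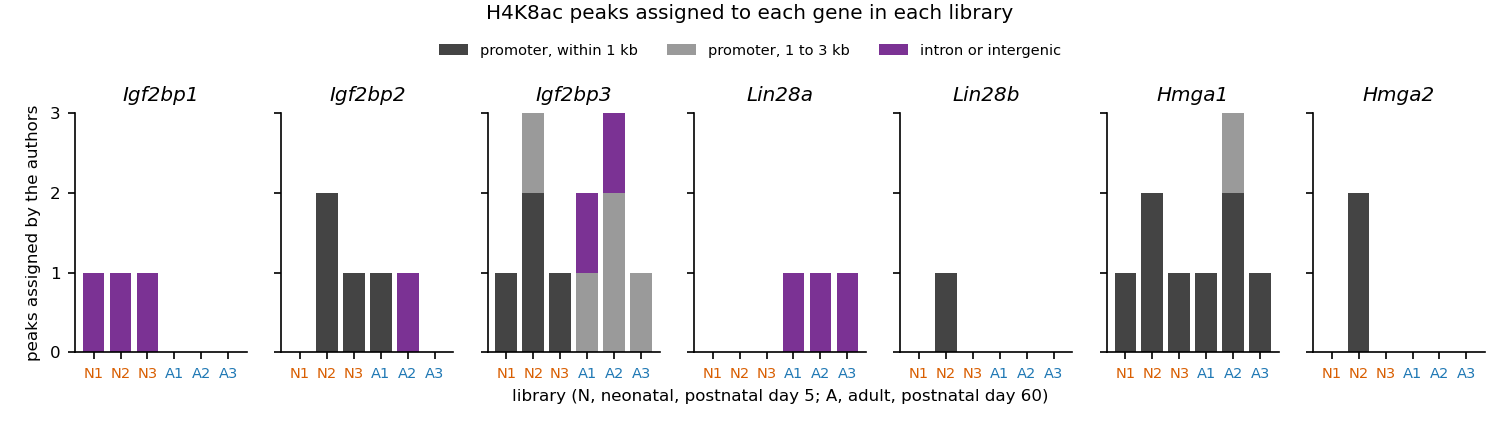
Number of H4K8ac peaks that the deposited lists assign to each gene (vertical axis, peaks) in neonatal (N1 to N3, postnatal day 5) and adult (A1 to A3, postnatal day 60) libraries; colours split promoter peaks by distance from the TSS and show intronic or intergenic peaks apart. Igf2bp1 has 1 peak in each neonatal library and none in adult ones, Lin28a has the opposite pattern, and Hmga1 has a promoter peak in all 6 libraries.

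Igf2bp1, which stabilises transcripts such as Myc and carries beta-actin mRNA into growing processes, had 1 H4K8ac peak in each neonatal library and 0 in each adult library. The gene (ENSMUSG00000013415.9) spans chr11:95957163-96005944 on the minus strand. The peak lay in intron 2 of 14, with its summit 14.7 kb inside the gene. It ran over chr11:95991074-95991756 in neonatal replicate 1, with a fold enrichment over background of 8.22 and a −log10 p of 23.4. In neonatal replicate 2 it ran over chr11:95990786-95991829, with a fold of 9.70 and a −log10 p of 41.8. In neonatal replicate 3 it ran over chr11:95991004-95991710, with a fold of 6.22 and a −log10 p of 15.3. Folds and p-values of peaks are those of the authors' peak caller throughout. The 3 summits fell within 45 bp and 637 bp were shared by the 3 peaks, so the libraries marked the same place. By p the peaks ranked 227 of 9097, 1179 of 31189 and 1062 of 7353 in neonatal replicates 1, 2 and 3.

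No adult peak overlapped Igf2bp1 or the 10 kb on either side, and the nearest adult peak to the intronic site was 42.8, 43.1 and 43.0 kb away in adult replicates 1, 2 and 3, assigned to Snf8 in each. The surroundings were not empty in adult cells: within 500 kb of the gene there were 41, 36 and 39 adult peaks against 2, 20 and 5 neonatal ones. Neonatal replicate 2 had a second peak inside the gene by its 5′ end, at chr11:96004750-96005145 with a fold of 4.56, which the list assigns to Gm29202, and no other library had it. A peak in all 3 neonatal and no adult library was found for 46 of 23433 genes (0.196%). Igf2bp1 was the only one of the 7 genes among them, and since this pattern chose the set, nothing is read from that share. In the authors' deposited table of differential sites, the site at chr11:95991042-95991441 had a log2 fold change of −4.46 (adult over neonatal) with an adjusted p of 3.95e-09. Of the 43888 sites that the authors' deposited table lists it was the 3rd lowest. Since the table contrasts the same groups whose peaks chose the gene, nothing is read from this rank or p.

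Igf2bp3, a family member used as a tumour marker in pathology, had a peak at its 5′ end in each neonatal library and none there in adult libraries. The gene (ENSMUSG00000029814.10) spans chr6:49085218-49215469 on the minus strand. The 5′ peak was at chr6:49213979-49214472 in neonatal replicate 1, with a fold of 5.22 and a −log10 p of 10.2. It was at chr6:49213734-49214505 in neonatal replicate 2, with a fold of 6.31 and a −log10 p of 19.4. In neonatal replicate 3 it was at chr6:49213917-49214275, with a fold of 3.87 and a −log10 p of 7.45. The 3 peaks shared 297 bp and their summits fell within 235 bp. By p these peaks ranked 3686 of 9097, 6745 of 31189 and 5587 of 7353 in neonatal replicates 1, 2 and 3. They lay on the transcribed side of the RefSeq start whose upstream sequence is printed above, beginning 482 bp from it in neonatal replicate 1 and 679 bp in neonatal replicate 3. Neonatal replicate 2 alone had a smaller peak upstream of that start, at chr6:49215059-49215198 with a fold of 3.80, which overlaps the printed window.

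The adult libraries were not without peaks at Igf2bp3. Between 117.5 and 119.5 kb from the gene's start, in or beside intron 10 of 14 and near the start of a short internal transcript, adult replicate 1 had 2 peaks with folds of 5.78 and 3.61, adult replicate 2 had 3 peaks with folds of 3.75, 3.25 and 3.44, and adult replicate 3 had 1 peak of 1955 bp with a fold of 5.82. Neonatal replicate 2 also had a peak there, at chr6:49096791-49097341 with a fold of 4.81. The lists name some of these peaks promoter because they lie 1 to 3 kb from the internal start. Counted by name, Igf2bp3 therefore had a promoter peak in all 6 libraries, as did Hmga1 among the 7 genes and 3996 of 18548 genes (21.5%). Counted within 1000 bp of a TSS, it had a peak in all 3 neonatal and no adult library, a pattern that 54 of 17155 genes (0.315%) shared and from which nothing is read, since it chose the gene. The nearest adult peak to the 5′ site was 48.9, 48.9 and 48.8 kb away, assigned to Tra2a, which encodes a splicing regulator. In the authors' deposited table the site at chr6:49213940-49214339 had a log2 fold change of −4.45 with an adjusted p of 1.22e-07, the 4th lowest of the table. Nothing is read from this rank or p either, since the gene was chosen on the same contrast.

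**Figure D2:**
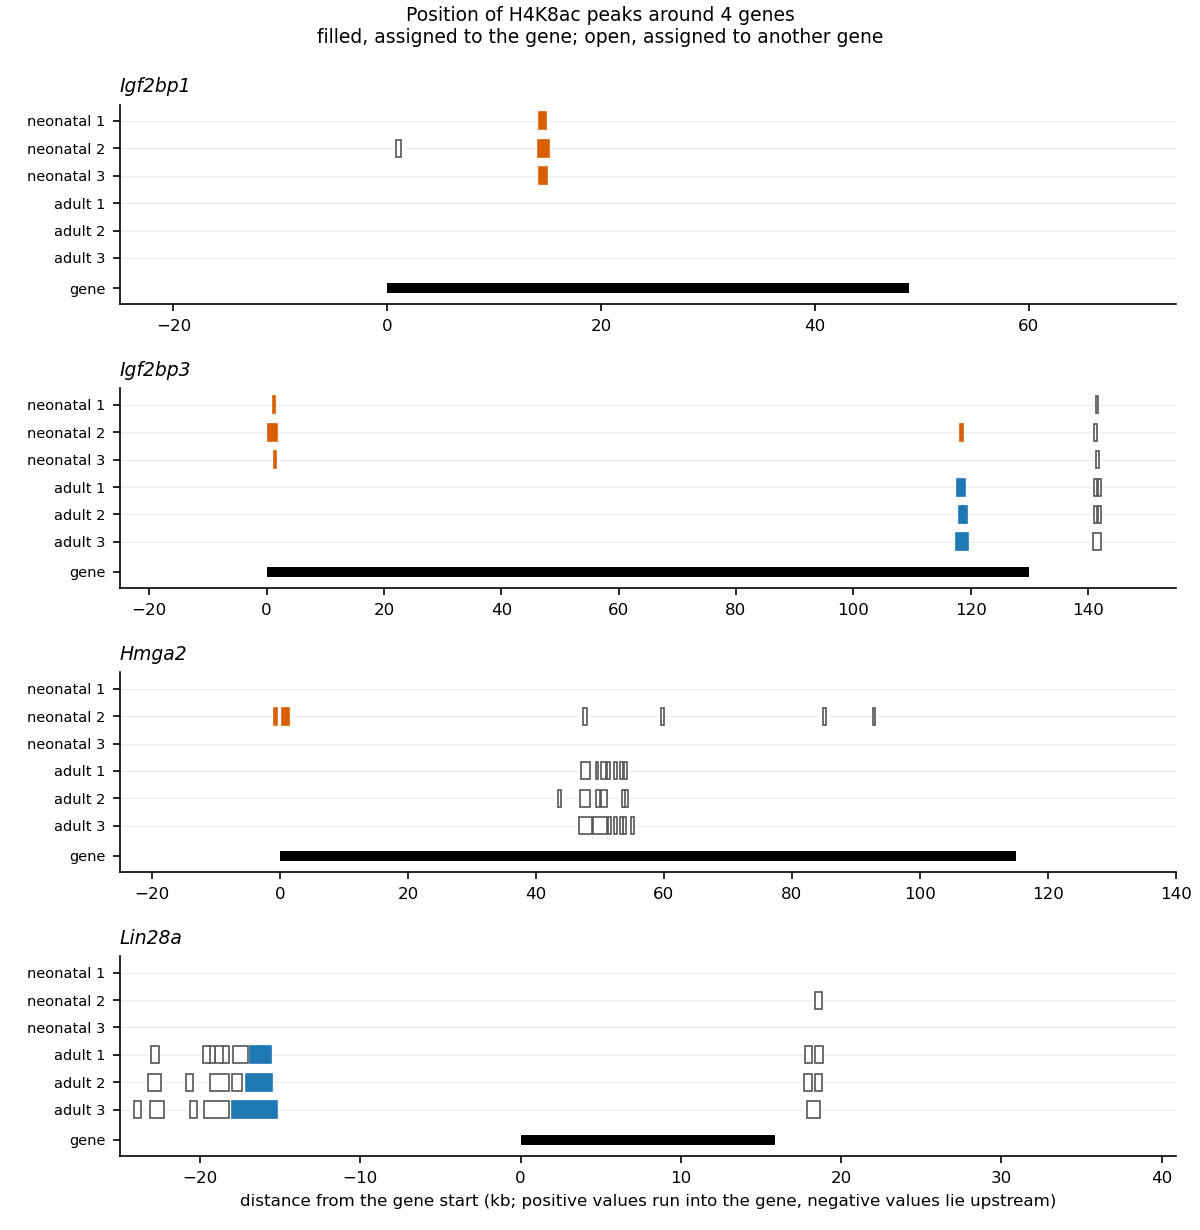
Peaks around Igf2bp1, Igf2bp3, Hmga2 and Lin28a, one row per library, against the distance from the gene start in kb (horizontal axis), with the gene as a black bar; filled boxes are assigned to the gene, open boxes to another gene, and very narrow peaks are drawn at a minimum width. The neonatal peaks of Igf2bp1 sit 14.7 kb inside the gene, the 5′ peak of Igf2bp3 is in the 3 neonatal rows only, and the adult rows fill an intronic stretch of Hmga2 and a stretch upstream of Lin28a.

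Both sites run against the trend of the authors' deposited table, in which 43634 of 43888 sites were above 0 (higher in adult) and 254 (0.579%) were below 0. That table contrasts the same neonatal and adult groups whose peaks chose Igf2bp1 and Igf2bp3. Nothing is therefore read from the ranks, adjusted p-values or signs of these sites. The median of the sites below 0 in the authors' deposited table was −1.61 and that of all sites 2.41. The lowest value of the authors' deposited table, −7.59, was at a site on the unplaced scaffold JH584304.1. The next above Igf2bp3 were a second site of that scaffold at −4.22 and a site of Abcc12 at −4.13 in the authors' deposited table. Igf2bp1 and Igf2bp3 had peaks under their site in 3 of 3 neonatal libraries, while the site of Abcc12 had peaks in 2 neonatal libraries and 0 adult ones.

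The genes whose 6 libraries looked most like Igf2bp1, by the Euclidean distance of log2(1 + bases under assigned peaks), were Gm10762 (0.342), Ncor1 (0.512), Pced1a (0.617), Fam155a (0.917) and Cpsf7 (1.11). Each had bases under peaks in the 3 neonatal libraries and 0 in the 3 adult libraries. Of these 5, Fam155a had a site in the authors' deposited table, with a log2 fold change of −1.66 and an adjusted p of 0.0107. The nearest to Igf2bp3, whose profile includes the intron 10 peaks, were Mapk4 (0.618), Btbd17 (0.637), Dchs1 (0.72), Marchf7 (0.846) and Ube2n (0.866). Of these, Btbd17, Marchf7 and Ube2n had a site in the authors' deposited table, and the lowest value of each was above 0, at 1.32, 1.15 and 1.26.

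Igf2bp2, the family member that stays on in many adult tissues and is tied to metabolism, had no pattern shared by the libraries of an age. The gene spans chr16:22059009-22163299 on the minus strand. Neonatal replicate 1 had no peak. Neonatal replicate 2 had 2 promoter peaks, at chr16:22162430-22163450 with a fold of 7.09 and at chr16:22161693-22162090 with a fold of 4.07. Neonatal replicate 3 had 1 promoter peak, at chr16:22162661-22162865 with a fold of 3.80. Adult replicate 1 had 1 promoter peak, at chr16:22162640-22163324 with a fold of 3.89, adult replicate 2 had only a peak in intron 12 of 15 with a fold of 5.10, and adult replicate 3 had none. The promoter was thus marked in 2 of 3 neonatal and 1 of 3 adult libraries, and the folds of neonatal replicate 3 and adult replicate 1 were close. No site of the authors' deposited table lay in the gene or within 10 kb of it. Within 500 kb there were 9, 20 and 8 neonatal and 37, 39 and 45 adult peaks. These counts were not scaled to list length, and the adult lists were longer.

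Lin28a encodes the cytoplasmic LIN28 protein that recruits uridylyl transferases to the let-7 precursor. It had no promoter peak in any library. The gene spans chr4:134003330-134019196 on the minus strand, and its assigned peaks were intergenic. Each adult library had 1, upstream of the gene by 15901, 15899 and 15580 bp in adult replicates 1, 2 and 3, as the lists measure it. The folds were 7.59, 10.2 and 12.2, and the peaks were 1317, 1609 and 2784 bp wide. No neonatal library had a peak there. The stretch went on further upstream with adult peaks assigned to Zfp683, a transcription factor gene of lymphocytes, so the assignment to Lin28a is by nearness only. Of 23433 genes, 3711 (15.8%) had peaks in the 3 adult libraries and in none of the neonatal ones, and Lin28a was the only one of the 7 among them. In the authors' deposited table the site at chr4:134035680-134036079 had a log2 fold change of 3.83 with an adjusted p of 2.26e-09, at the 82.4 percentile of the listed sites.

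Lin28b, which encodes the LIN28 protein found in the nucleolus, had a single peak in all the data. It lay over a start of the gene at chr10:45485941-45486515 in neonatal replicate 2, with a fold of 4.53. The gene spans chr10:45376617-45486314 on the minus strand in a sparse neighbourhood, with 0, 8 and 0 neonatal and 6, 6 and 8 adult peaks within 500 kb. The RefSeq window described above belongs to another start, 15740 bp from that peak. No site of the authors' deposited table lay at Lin28b.

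**Figure D3:**
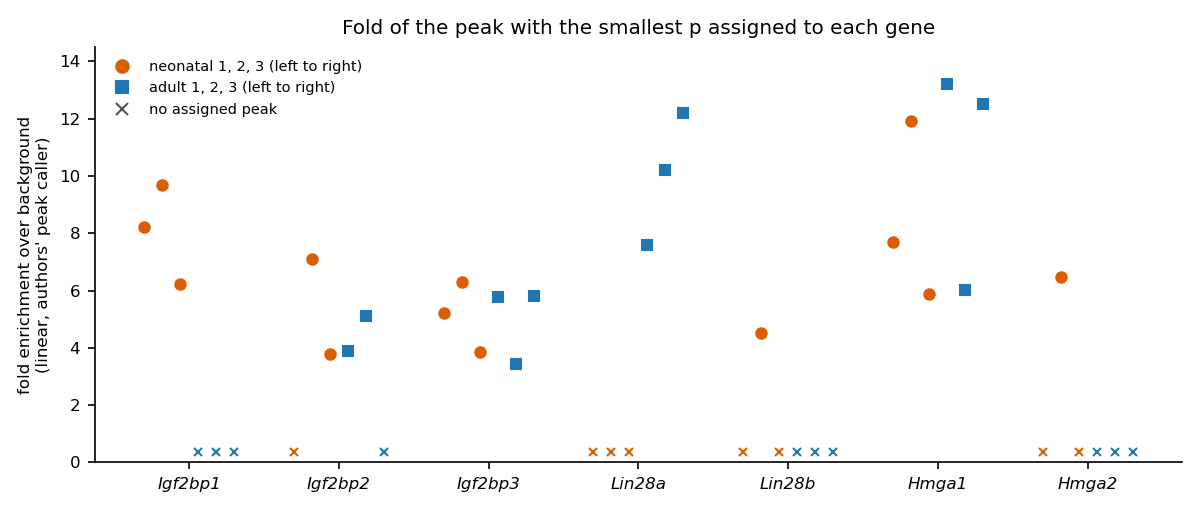
Fold enrichment over background (vertical axis, linear) of the peak with the smallest p that each library assigns to each gene; circles are neonatal, squares adult, and crosses mark a library with no assigned peak. Folds of Igf2bp1 span 6.22 to 9.70 in neonatal libraries, those of Lin28a 7.59 to 12.2 in adult libraries, and the ages overlap at Hmga1, Igf2bp2 and Igf2bp3. At Igf2bp3 different places are compared: the neonatal values are of the 5′ peak and the adult values of peaks in or beside intron 10. At Igf2bp2 the value of adult replicate 2 is of a peak in intron 12.

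Hmga1 was the member with H4K8ac at its start in every library. The gene spans chr17:27556574-27563672 on the plus strand. The strongest peak by p had a fold of 7.70, 11.9 and 5.88 in neonatal and of 13.2, 6.01 and 12.5 in adult libraries, and these ranges overlapped. The assigned peaks covered 451, 2501 and 421 bp in neonatal and 2596, 2295 and 2494 bp in adult libraries. Neonatal replicate 2 lay within the adult range and neonatal replicates 1 and 3 far below it. In those 2 libraries the peak began 289 and 279 bp downstream of the RefSeq start and left the printed window free, while in the other libraries it reached over the start. By p the strongest peak ranked 605 of 9097, 1043 of 31189 and 1026 of 7353 in neonatal libraries. In adult libraries it ranked 4568 of 72278, 12080 of 72661 and 3359 of 77002. No site of the authors' deposited table was assigned to Hmga1, and 1 site within 10 kb, assigned to the neighbour AI413582, had a log2 fold change of 2.27 with an adjusted p of 2.99e-06 in the authors' deposited table. Hmga1b, a near-identical copy of the gene on chromosome 11, had 0, 1 and 0 peaks in neonatal and 0, 1 and 1 in adult libraries. How reads that match both copies were handled is not given in the sources used here.

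Hmga2, which keeps fetal neural stem cells dividing, had promoter peaks in neonatal replicate 2 only. They lay on either side of the start, at chr10:120475053-120476209 with a fold of 6.48 and at chr10:120477048-120477336 with a fold of 5.07. A promoter peak in neonatal replicate 2 and no other library was found for 897 of 18548 genes (4.84%), Hmga2 and Lin28b among them. Without that library neither gene has an assigned peak.

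By position the adult libraries did mark Hmga2. The gene spans chr10:120361268-120476469 on the minus strand, and peaks inside it covered 0, 2.27 and 0 kb in neonatal and 3.42, 4.02 and 5.58 kb in adult libraries. In adult replicates 1, 2 and 3 these were 7, 6 and 7 intronic peaks spread over 7.09, 11.0 and 8.26 kb, with folds of up to 9.76, 9.22 and 9.59. In adult replicate 3 the stretch began 46.8 kb and ended 55.1 kb from the gene's start. The lists assign all of them to Mir763, a microRNA gene within Hmga2, so a count by name misses them. Neonatal replicate 2 had 1 peak in the stretch, with a fold of 7.35, and 3 small peaks elsewhere in the gene assigned to 9230105E05Rik. The stretch held 4 sites of the authors' deposited table, with log2 fold changes of 1.16, 1.24, 1.83 and 2.09 and adjusted p-values of 0.0126, 0.0499, 0.00617 and 0.00054. All 4 were above 0 and below the median of 2.41 over all sites of the authors' deposited table.

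The let-7 microRNAs are the best known partners of this set, since LIN28 proteins block them and they bind Igf2bp, Lin28 and Hmga2 messages. Their mature 5p forms share the seed GAGGUAG (bases 2 to 8), which is in all 9 forms encoded by the 11 genes with a mature 5p entry in the RefSeq table on GRCm38.p6. The forms shown, with the seed in capitals, are those of the loci named below, and they let a reader see how little the family differs. The let-7a-5p sequence is the one listed for Mirlet7a-1.
mmu-let-7a-5p: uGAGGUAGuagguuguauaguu
mmu-let-7b-5p: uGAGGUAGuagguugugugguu
mmu-let-7c-5p: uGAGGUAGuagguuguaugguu
mmu-let-7f-5p: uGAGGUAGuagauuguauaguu
mmu-let-7i-5p: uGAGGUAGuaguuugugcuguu
mmu-miR-98-5p: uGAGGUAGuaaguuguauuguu

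Around the hairpins, bases under peaks were more numerous in adult libraries at 10 of 12 loci, measured within 10 kb on each side, with no overlap between the ages. Over all 1005 RefSeq hairpins on the chromosomes of the lists, 383 (38.1%) had this pattern. Windows of clustered hairpins overlap, so these 10 are not independent places. The cluster of Mirlet7c-2 and Mirlet7b on chromosome 15 had 0, 0.885 and 0 kb under peaks in neonatal and 4.88, 4.12 and 7.83 kb in adult libraries. All 8 sites there were above 0 in the authors' deposited table, between 1.45 and 2.27. At Mirlet7a-2 on chromosome 9 the neonatal libraries had 0 kb and the adult libraries 1.32, 1.06 and 3.12 kb. Mirlet7i on chromosome 10 was marked at both ages, with 0.938, 1.3 and 0.899 kb in neonatal and 1.86, 1.75 and 2.63 kb in adult libraries. Mirlet7f-2 and Mir98 on the X chromosome had 0 kb in all 6 libraries. Adult peak lists were longer and mature oligodendrocyte markers were marked in them, and the part of either in these values was not tested.

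**Figure D4:**
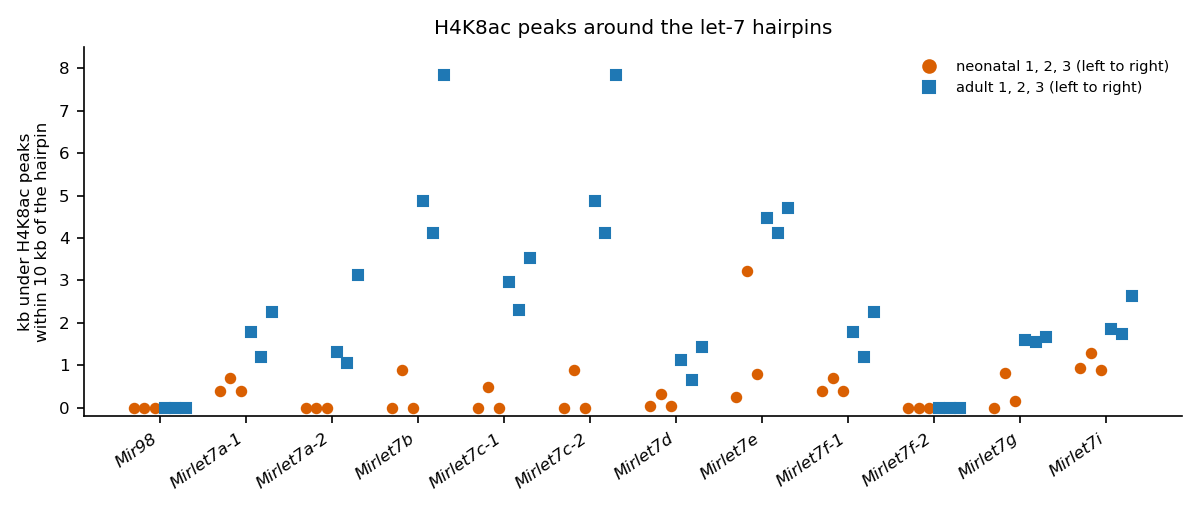
Length under H4K8ac peaks within 10 kb on each side of each let-7 hairpin and Mir98 (vertical axis, kb) in neonatal (circles) and adult (squares) libraries. The adult squares lie above the neonatal circles at 10 of 12 hairpins, with up to 7.83 kb at the Mirlet7b and Mirlet7c-2 cluster, and the pair on the X chromosome is at 0.

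By assigned gene name, 1, 2 and 1 of 14 let-7 genes and host genes had a promoter peak in neonatal and 4, 4 and 5 in adult libraries. Mirlet7b and Mirlet7c-2 had one in all 3 adult and no neonatal library. Among all genes with a promoter peak anywhere 2249 of 18548 (12.1%) had this pattern, and of 1228 RefSeq microRNA genes 51 had it (4.15%). For a microRNA the distance is to the hairpin, not to the start of the primary transcript. In the authors' deposited table the promoter sites of Mirlet7b, Mirlet7c-2, Mirlet7i and the host gene Mir99ahg were at 1.94, 2.27, 1.36 and 2.75, all above 0, against a median of 2.46 over 102 microRNA genes with a promoter site.

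The list of genes that process or degrade let-7 held 14. Of these, 6, 13 and 10 had a promoter peak in neonatal and 13, 13 and 12 in adult libraries. All 6 libraries had one at 6 of them (42.9%), against 17.2% of all protein-coding genes. In single libraries the share of protein-coding genes was 23.2% to 52.6% in neonatal and 53.8% to 55.6% in adult libraries. All 12 with a promoter site in the authors' deposited table were above 0, with a median of 1.59. Over all protein-coding genes 9642 of 9741 with a promoter site (99%) were above 0 in the authors' deposited table, with a median of 1.69. By these site values the list lay close to the background. Dis3l2, the exonuclease that degrades uridylated let-7 precursors, had the highest promoter value of the list in the authors' deposited table, 4.61 with an adjusted p of 2.25e-10. The lowest site of Dis3l2, also a promoter site, was at 2.15. Dicer1, which cuts the hairpin, was at 2.54 and Tut7, a uridylyl transferase, at 1.16 in the authors' deposited table. Trim71, itself a let-7 target and stem cell factor, had no promoter peak in any library and an intronic site at 3.48 in the authors' deposited table, and it was named after its values were seen.

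Other messages known as let-7 targets numbered 16. Of these, 9, 14 and 8 had a promoter peak in neonatal and 13, 13 and 14 in adult libraries. A promoter peak in all 6 libraries was found for 6 of them (37.5%), against 17.2% of all protein-coding genes. The share of protein-coding genes in single libraries was 23.2% to 52.6% in neonatal and 53.8% to 55.6% in adult libraries. Of 13 with a promoter site, 12 were above 0 and 1 below in the authors' deposited table, with a median of 1.65. The site below 0 was at Ccnd2, the cyclin of dividing progenitors, at −2.60 with an adjusted p of 0.000118 in the authors' deposited table. Ccnd2 had 1, 4 and 1 promoter peaks in neonatal and 0, 0 and 1 in adult libraries. Plagl2, a zinc-finger transcription factor gene, had a promoter peak in 2 neonatal libraries and no adult one, and no site in the authors' deposited table, and it was named after its values were seen. Nr6a1, Ccnd1 and Arid3a were at 2.80, 2.64 and 2.48 in the authors' deposited table.

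The insulin-like growth factor axis, whose Igf2 message gave the IGF2BP proteins their name, had promoter peaks for 8, 10 and 9 of 12 genes in neonatal and 7, 7 and 9 in adult libraries. The adult counts, 7 to 9, thus lay no higher than the neonatal ones, 8 to 10, while the share of all protein-coding genes was 23.2% to 52.6% in neonatal and 53.8% to 55.6% in adult libraries. Igfbp2, which encodes a binding protein that sequesters growth factor, was the site below 0 in the authors' deposited table, at −1.59 with an adjusted p of 0.0104. It had 1, 4 and 1 promoter peaks in neonatal and 0, 0 and 1 in adult libraries, the same numbers as Ccnd2. Igf2 had 1 promoter peak, in neonatal replicate 2, and was likewise named after its values were seen. The other 5 promoter sites of the list were above 0 in the authors' deposited table, Irs2 at 2.12 and Igf1r at 1.93 among them.

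**Figure D5:**
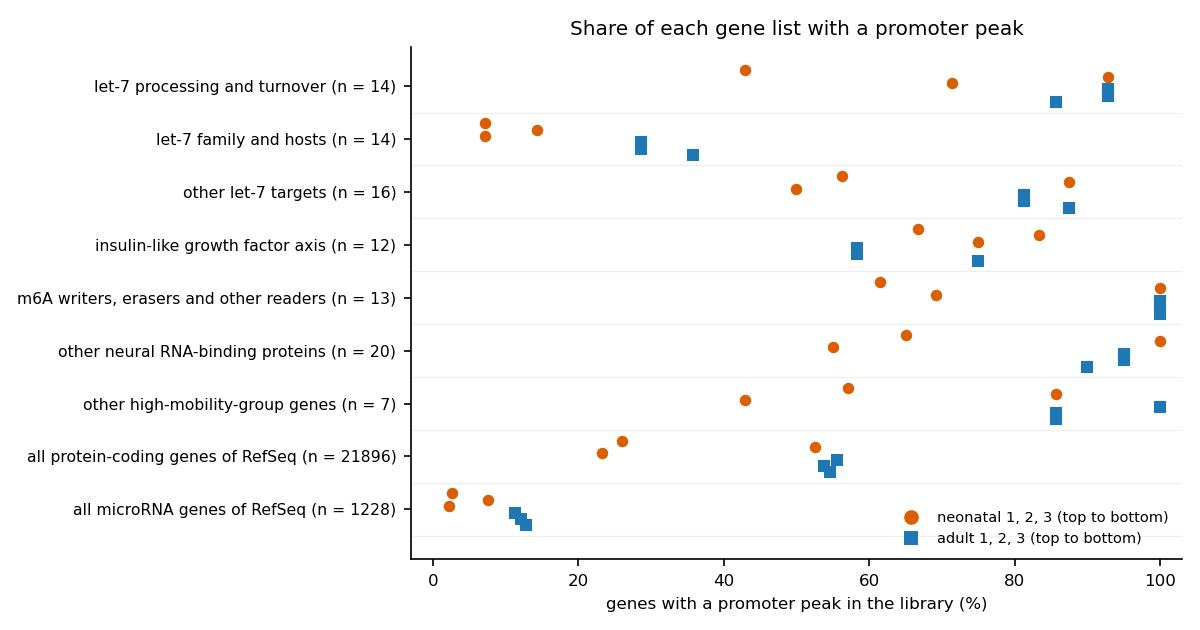
Share of each fixed gene list with a promoter peak (horizontal axis, %) in neonatal (circles) and adult (squares) libraries, with all RefSeq protein-coding and microRNA genes at the bottom. In most lists neonatal replicate 2 lies near the adult libraries, and in the insulin-like growth factor axis the ages overlap.

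The m6A machinery, with which IGF2BP proteins share their marked transcripts, had promoter peaks at 8, 13 and 9 of 13 genes in neonatal and at 13 in each adult library, against 23.2% to 52.6% of protein-coding genes in neonatal and 53.8% to 55.6% in adult libraries. All 13 promoter sites were above 0 in the authors' deposited table, as were 99% over all protein-coding genes, with a median of 1.36 against 1.69, and Ythdf3, a cytoplasmic reader, was highest at 2.14. Of 20 other RNA-binding proteins of neural cells, 13, 20 and 11 had a promoter peak in neonatal and 19, 19 and 18 in adult libraries. All 13 with a promoter site in the authors' deposited table were above 0, with a median of 1.54. Elavl3, a neuronal Hu protein, was at 5.97 with an adjusted p of 1.53e-12, and Msi2, a Musashi protein, at 3.51 in the authors' deposited table. Elavl2 had promoter peaks in neonatal replicate 2 only, the pattern of Hmga2 and Lin28b, and was named after its values were seen. Of 7 other high-mobility-group genes, 4, 6 and 3 had a promoter peak in neonatal and 7, 6 and 6 in adult libraries, and Hmgn2, which encodes a nucleosome-binding protein, was at 3.09 with an adjusted p of 6.71e-09 in the authors' deposited table.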

How the data were processed

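H4K8ac was measured by ChIP-seq in 3 neonatal and 3 adult libraries, grouped by the labels' ages. Trim Galore, Bowtie2 2.4.5, SAMtools, deepTools, MACS2, DiffBind and ChIPseeker are named, without roles, in the submitters' processing notes, with the build GRCm38. Per the file headers, the authors deposited 1 peak list per library with each peak's position, score, linear fold over background, −log10 p-value and q-value, and nearest gene. Their table without a header was read, from its values, as log2 fold change, p-value and adjusted p-value per site, and the sign by overlap with the deposited lists. The largest q-value of each list was 0.0427 to 0.0489. No list held repeated rows.

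Peaks were joined to genes by name and by position with Python 3.11.15, pandas 2.3.3 and numpy 2.4.6. Overlap meant 1 bp or more, and the interval code was tested on simulated data. A site took the gene of the deposited peak sharing the most bases with it. Where a gene had several promoter sites, its promoter value was that of the site with the smallest p. The genes and the 14 gene lists (7 of markers) were chosen with earlier results of these data known, and no test was run. Replicates give a spread only, and no read depth is known, so values carry no counting interval. Outside the set, the text names genes of a list with a promoter peak in all libraries of 1 age and none of the other, or a site below 0, up to 3 more with extreme promoter values, and the 5 nearest profiles. Alternatives were shorter or stricter lists, merged peaks, other windows, assignment by position and leaving out each library.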

Additional observations from a re-analysis of the deposited data

How the results depend on the processing

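No paired analysis was possible because the values come from no test: the genes were chosen on this contrast. Whether equal replicate numbers pair the libraries is not given in the labels. The mean number of assigned peaks was higher in neonatal libraries by 0.667. Leaving out 1 library at a time gave −1.83 to 2.17: without neonatal replicate 2 the difference was −1.83 and without adult replicate 3 it was −0.5, the other direction. Under stricter, shortened or merged lists it was 0.667, 2.33 and 1.33. The number of genes with a promoter peak was higher in neonatal libraries by 1.0, by 1.0 to 2.33 under the other settings and by 0.167 to 1.67 with 1 library left out, lowest without neonatal replicate 2. Length under peaks within 10 kb of the genes was 1.63, 10.5 and 1.69 kb in neonatal and 10.5, 9.31 and 12.7 kb in adult libraries. Neonatal replicate 2 thus lay within the adult range. The mean was 4.61 kb in neonatal and 10.8 kb in adult libraries, a difference of −6.23 kb. It was −18.3 kb within 50 kb, −1.38 kb with lists of equal length, −9.18 to −4.74 kb with 1 library left out and −2.74 kb without Hmga2, a setting chosen after seeing the data, as were the windows around the let-7 hairpins. The authors' deposited table held 2 sites below 0 at these genes under each setting run, and 1 above 0 by name but 6 by position within 10 kb. The causes were not tested. Unequal lists and unknown depth limit what a missing peak means.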

Other observations

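The 2 lowest scaffold sites of the authors' deposited table, both on JH584304.1 with log2 fold changes of −7.59 and −4.22, overlapped no peak in any of the 6 lists, while every site at the 7 genes overlapped peaks in at least 2 libraries. A site of Dhdds, the gene downstream of Lin28a, had a log2 fold change of 1.63 and an adjusted p of 0.0355 in the authors' deposited table, with peaks in 1 neonatal and 3 adult libraries.

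Counts of peaks within 500 kb were not scaled to list length, and the adult lists were longer. Around Lin28a there were 12, 39 and 14 peaks in neonatal and 100, 97 and 92 in adult libraries. Around Hmga1 the numbers were 8, 39 and 9 against 129, 114 and 103. Around Igf2bp3 they were 9, 27 and 7 against 17, 20 and 15, and around Hmga2 2, 22 and 2 against 18, 15 and 17, so at these 2 genes neonatal replicate 2 had more peaks than any adult library.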
